A study of Poecilia latipinna with 15 samples.

Results

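The lightgreen module core is a set of 99 brain transcripts of the sailfin molly (Poecilia latipinna) whose levels moved together from one female to the next. They were chosen by their correlation with the lightgreen module eigengene of the study: among the transcripts with more than 2 TPM (a length-scaled share of the library) in 3 or more of 15 females, a member had a Pearson r above 0.8 between its log2(CPM + 1) and the eigengene. CPM is the estimated count scaled by the total of its library. The study computed the eigengene from gene-level values, so that these transcripts are not its list of module genes. Of 31813 transcripts, 21671 passed the filter on low values and 99 of these, or 0.457%, were members, while 66 others had an r below -0.8 and are not members. All 99 therefore passed the filter by construction, and 10142 transcripts that did not pass it could not be members.

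The 15 adult females came from a semi-natural outdoor setting, were isolated, and were then tested once behind clear dividers, without contact, with a pair of stimulus fish that differed in size. In the male-interaction context (Mm, n = 8) the stimuli were males, and in the female-interaction context (Ff, n = 7) they were females. Both contexts were social, and no female went without company. The study kept only females that spent most of the trial near the stimulus fish, which narrowed the range of that time. RNA of each whole brain was profiled right after the trial by RNA sequencing. Replicates are separate females, and age was not given in the labels. Mm females carry the numbers 3, 4, 5, 6, 10, 11, 12 and 13, and Ff females the numbers 1, 2, 7, 8, 9, 17 and 19. The number is the one in the sample titles, and what its order records is not given in the sources used here.

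A co-expression module groups genes whose levels rise and fall together over individuals, and its eigengene is the first principal component of the grouped genes, one value for each individual. Such modules often gather genes that the same cell type or the same process uses. In a whole brain, which mixes neurons, glia, blood and vessel cells, fewer cells of a type and less RNA per cell cannot be told apart. The files and reference tables at hand do not link transcripts to gene names, so that neither roles nor cell type markers can be given for members, and members are described by their levels, lengths and rank in r. For the same reason the label of the tissue was not tested on marker genes.

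Libraries held 3424641 to 9989142 estimated counts in Mm (median 5774792) and 5301116 to 10555933 in Ff (median 6001956). Transcripts over 5000 bases took 10.1% to 13.7% of the counts in Mm females and 10.2% to 13.5% in Ff females. The share was 13.3%, 12.6%, 13.7%, 13.1% and 12.6% in females 1 to 5, in that order, and 10.1% to 13.5% in the others. Over the 15 females the lightgreen eigengene had an r of 0.22 with the log2 total count (permutation test, p = 0.421), of -0.28 with the TMM scaling factor (p = 0.309), of -0.0038 with the number of transcripts detected (p = 0.989) and of -0.39 with the share of counts from transcripts over 5000 bases (p = 0.149). With the 2 most extreme values of each measure left out, r was -0.25, -0.43, -0.17 and -0.54, in the same order (permutation tests, p = 0.425, 0.143, 0.568 and 0.0543).

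Members covered a wide range of levels and lengths, but not the ends of the ranges of the kept transcripts. Those ran from 60 to 24657 bases and, in mean level, from 0.041 to 11808 CPM. The r with the eigengene, which chose the members and is given as a description, had a median of 0.841. The highest values were 0.950, 0.937 and 0.934, and the lowest inside the threshold were 0.8023, 0.8013 and 0.8005, against 0.7995, 0.7995 and 0.7991 just outside it. The 3 just inside had mean levels of 41.3, 20.5 and 39.0 CPM, and the 3 just outside had 14.4, 11.7 and 5.28 CPM. The median length was 2299 bases (237 to 8088) in the members and 1782 bases over all kept transcripts. Mean levels had a median of 16.2 CPM in the members and 15.4 CPM over all kept transcripts, and per length the medians were 10.8 and 10.9 TPM. Members were thus somewhat longer than the kept transcripts at large and about as abundant. Length entered the rule through the filter on TPM, which is scaled by length. Whether members were longer than the kept transcripts was not tested.

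Since the rule required a high r with lightgreen, a close match with it was largely fixed by the choice of members, and what follows is a description. Of all eigengenes of the study, lightgreen had the highest signed r with 92 members, red with 5 and darkred with 2. An inverse match could not count here. Some members had an r of larger size with the blue eigengene than with lightgreen, in the opposite direction. It was -0.906 against 0.801 for the member ranked 98th in r, -0.888 against 0.826 for the 70th and -0.875 against 0.831 for the 64th. How many members did so was not counted. Of 24 other eigengenes compared with lightgreen over the 15 females, red had the highest r at 0.73, grey60 had 0.64 and darkred 0.62. The blue eigengene ran the other way (r = -0.74). Accordingly, 90 members had an r above 0.5 with red (median 0.64) and 92 had an r below -0.5 with blue (median -0.73). Transcripts chosen by the same threshold for red numbered 150, and 14 were in both sets, which is 14.1% of the lightgreen members and 9.33% of the red ones. The turquoise set, at 572 transcripts, shared 0 with lightgreen. These correlations share the 15 females and the same libraries and are given without tests. Between members, pairwise r ranged from 0.45 to 0.97 with a median of 0.75 over 4851 pairs, and a single component held 75.0% of their variance, against 4.16% for the next, which also follows from choosing them by one vector.

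What the members had in common was a low level in the females with the lowest numbers. Since each member was chosen for following the eigengene, that members were low in the same females follows largely from the rule. The levels are given as a description. In Mm, the CPM summed over all members was 1846 in female 3, 1698 in female 4, 2245 in female 5, 3676 in female 6, 4824 in female 10, 5220 in female 11, 5186 in female 12 and 4556 in female 13. In Ff, it was 2005 in female 1, 2082 in female 2, 4924 in female 7, 4857 in female 8, 4554 in female 9, 4407 in female 17 and 3576 in female 19. Females 1 to 5 were the lowest of all, in whichever context they had been tested, and females 19 and 6 were next. Of the 99 members, 97 in female 3 and 96 in female 4 were among the 5 lowest values of the 15 females, as were 70 in female 5. The same held for 89 members in female 1 and 87 in female 2. In female 19 there were 31 such members and in female 9 there were 14, and in every other female at most 8. The matching shares over all kept transcripts were not counted, so that these counts describe the members only.

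**Figure D1:**
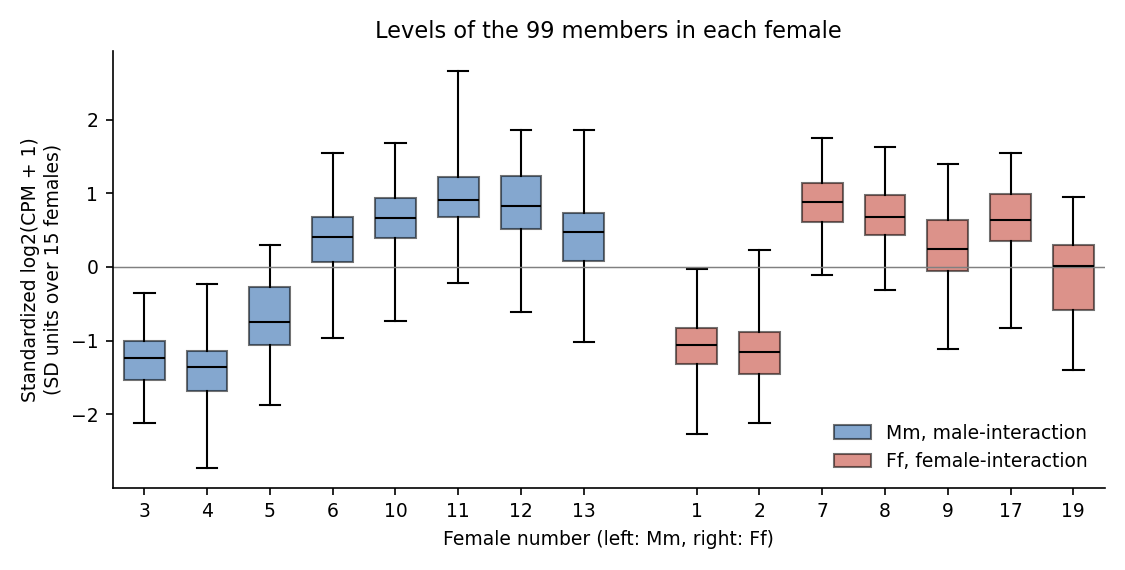
Standardized log2(CPM + 1) of the 99 members (y axis, SD units over 15 females) in each female (x axis, female number), Mm at left in blue and Ff at right in red; boxes span the quartiles, black lines are medians and whiskers reach the lowest and highest member. The boxes of females 1 to 5 lie below 0 in both contexts, whereas all other boxes reach above 0.

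Standardized over the 15 females, the mean level of the members was -1.25, -1.41 and -0.69 SD in females 3, 4 and 5 of Mm, and -1.07 and -1.11 SD in females 1 and 2 of Ff. It was 0.39, 0.62, 0.99, 0.83 and 0.40 SD in females 6, 10, 11, 12 and 13 of Mm. In Ff it was 0.85, 0.71, 0.22, 0.65 and -0.12 SD in females 7, 8, 9, 17 and 19. The drop was shared by nearly all members, which follows largely from the rule. In females 1, 3 and 4, 0 were above their own mean, whereas 98 were in females 7 and 11. The highest value of a member lay in female 12 for 25 members and in female 11 for 22, and the lowest lay in female 4 for 32.

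Members differed in how wide their levels ranged. The difference between the highest and the lowest female had a median of 1.89 on the scale of log2(CPM + 1) in the members (0.67 to 9.79) and of 1.37 over all kept transcripts. It was above 1 in 88 members (88.9%, against 70.3% of the kept transcripts), above 2 in 46 (46.5%, against 27.3%) and above 4 in 22 (22.2%, against 6.71%). The same levels entered the rule, and a transcript that hardly varies beyond counting error is unlikely to reach an r above 0.8. Wider ranges in the members thus follow in part from the rule. The member with the narrowest range, a transcript of 600 bases, had 9.93 to 16.4 CPM in Mm (median 13.4) and 11.0 to 13.6 CPM in Ff (median 13.1). A high r with the eigengene was thus reached by members with less than a doubling between females as well as by members that ran from no reads to among the highest levels of the set.

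The first 3 members in r show the common pattern. The first, of 783 bases, had 89.6 to 165 CPM in Mm (median 142) and 102 to 158 CPM in Ff (median 137), with females 1 to 5 all below 110 CPM and the other 10 all above 135 CPM. Levels of the second, of 5538 bases, were 3.75 to 50.4 CPM in Mm (median 21.4) and 5.24 to 44.1 CPM in Ff (median 24.1). For the third, of 1350 bases, values were 75.3 to 510 CPM in Mm (median 272) and 91.5 to 509 CPM in Ff (median 311). It was the most abundant member per length, at a mean of 280 TPM, ahead of the first member at 249 TPM. In all 3, the ranges of the contexts overlapped over most of their width, and the 5 lowest values were those of females 1 to 5.

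A subset of members had hardly any reads in some females. Going below 0.1 CPM in at least 1 female and above 5 CPM in another was seen for 29 members (29.3%), and for 2779 of the kept transcripts (12.8%). These bounds were chosen after the values were seen, and the rule favors transcripts that vary between females. For 23 of the 29, the females below 0.1 CPM were among females 1 to 5 only. Which females held the low values follows largely from choosing members by the eigengene. The matching count for the 2779 transcripts was not made. The number of members below 0.1 CPM was 25, 20, 15, 0, 0, 0, 0 and 1 in the Mm females, in the order of their numbers, and 19, 25, 0, 0, 5, 0 and 4 in the Ff females. Over all kept transcripts, the share below 0.1 CPM was 4.42% to 8.09% in Mm and 3.27% to 8.23% in Ff, with the highest shares in females 9 and 11 and not in females 1 to 5. Kallisto divides reads between similar transcripts, and without gene assignments it was not tested whether reads missing from a member had gone to another transcript of its gene or to a paralog.

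**Figure D2:**
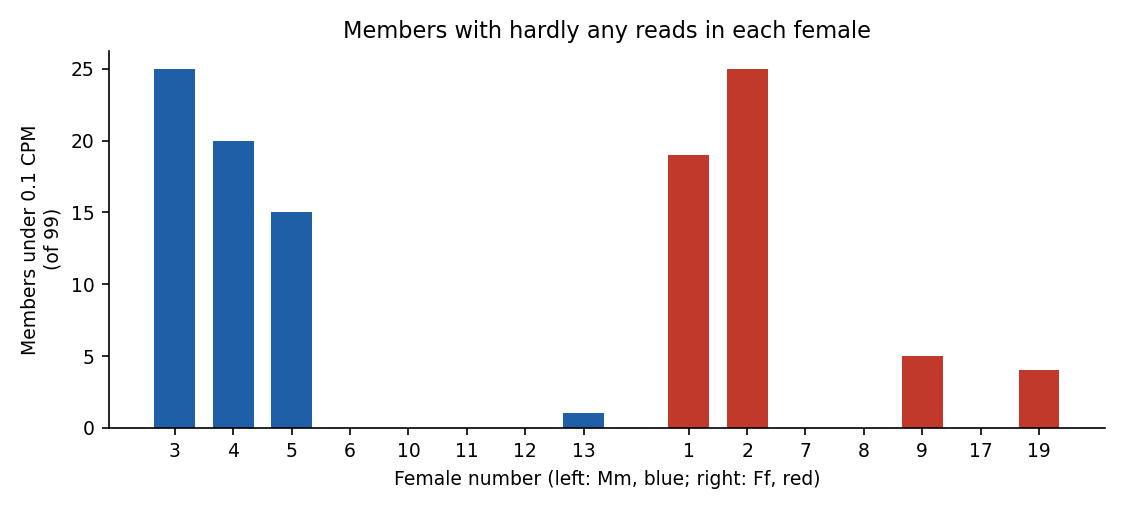
Number of the 99 members with less than 0.1 CPM (y axis) in each female (x axis, female number), Mm at left in blue and Ff at right in red. The count is 15 to 25 in females 1 to 5 and 0 to 5 in the other females.

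The clearest of these was also the most abundant member by count, a transcript of 2565 bases that ranked 18th in r and averaged 440 CPM. Its level was 0.0026 CPM in female 3, 2.4e-07 CPM in female 4 and 10.2 CPM in female 5 of Mm, and 11.9 CPM in female 1 and 0 in female 2 of Ff. In the other Mm females it was 224, 677, 736, 755 and 853 CPM in females 6, 10, 11, 12 and 13. In the other Ff females it was 526.3, 730, 883, 550.4 and 651 CPM in females 7, 8, 9, 17 and 19. No female lay between 11.9 and 224 CPM. By contrast, the second most abundant member by count, of 2574 bases, was present throughout, at 249 to 540.5 CPM in Mm (median 422) and 307 to 514 CPM in Ff (median 364).

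The first comparison asked whether members differed with the sex of the company. No difference was detected with these depths and numbers of females. The summed CPM averaged 3656 ± 1515 in Mm (SD, n = 8; median 4116) and 3772 ± 1261 in Ff (SD, n = 7; median 4407), a difference smaller than the SD of either context. In the voom and limma fit over all 21671 transcripts, 0 of 99 members were called at an unadjusted p below 0.05, against a background of 2.69% of all transcripts called in either direction, and 0 after Benjamini-Hochberg adjustment. The edgeR quasi-likelihood test and the DESeq2 Wald test likewise called 0 members at an unadjusted p below 0.05, against 2.1% and 2.17% of all transcripts. The log2 difference, Mm minus Ff, ran from -1.99 to 0.58 with a median of -0.11, and 77 of the 99 were negative, while the median over all transcripts was -0.01. This direction was not stable: without female 3 the median was 0.09 with 67 members positive, with female number as a term it was 0.07 with 62 positive, and edgeR and DESeq2 had 43 and 45 positive. The smallest unadjusted p of a member was 0.204 in limma. For the eigengene, the difference of the means, Mm minus Ff, was 0.0059 eigengene units over all 15 females (exact permutation test, p = 0.968). It was -0.20 within females 1 to 8 (4 against 4, exact permutation test, p = 0.343) and 0.21 within females 9 to 19 (4 against 3, exact permutation test, p = 0.114), so that its sign differed between the number groups. It did not pass the test within females 1 to 8. Within females 9 to 19 the 2-sided test of 4 against 3 cannot reach a p below 0.05, whatever the difference, and decides nothing.

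The preference score is the share of a female's movements toward the stimulus fish that were aimed at the one it favored, and slopes are given here in log2 units per 0.1 of this score. In Mm, the slopes of all 99 members were negative, from -1.75 to -0.08 with a median of -0.27, and the median over all transcripts was 0.01. At an unadjusted p below 0.05 the level of 63 members fell with preference in Mm (63.6%), against 5.68% of all transcripts, and 0 rose. Members were chosen to follow the same eigengene over the same females. Their calls and signs, here and for the other traits, are therefore not independent and largely repeat the same relation. After Benjamini-Hochberg adjustment over all transcripts none of the 99 passed in limma, where the lowest adjusted p of a member was 0.180. edgeR called 62 unadjusted, against 5.78% of all transcripts, and 0 adjusted. DESeq2 called 75 unadjusted, against 6.37%, and 15 adjusted, against 0.531%. The count fell to 33.3% of members without female 3 and to 39.4% without female 4, the Mm females with the lowest members. Over all transcripts the count that fell with preference in Mm also dropped, from 1230 to 764 without female 3 and 1061 without female 4.

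In Ff, 96 of the 99 slopes on preference were negative and the median was -0.15, from -3.31 to 0.04. The level of 7 members (7.07%) fell with preference at an unadjusted p below 0.05, against 2.35% of all transcripts, and 0 passed the adjustment in limma, where the lowest adjusted p was 0.744. Without female 2 the median slope turned to 0.0144, and at an unadjusted p below 0.05 only 1 member fell while 2 rose. The share that fell was 21.2% without female 7, 4.04% without female 9 and 3.03% without female 17. Over all transcripts, 510 fell with all females, and 506, 418 and 339 fell without females 7, 9 and 17. The difference of the slopes, Mm minus Ff, was tested in the same model. It was negative for 79 members and passed an unadjusted p below 0.05, in the negative direction, for 5 (5.05%), against 1.66% of all transcripts. The count was 14 without female 2, 8 without female 1, 10 or 13, and 10 with female number as a term, where the background was 1.84%, and without female 7 only 55 differences were negative. None of the differences passed the adjustment (lowest limma adjusted p 0.999), so a difference between contexts was not shown for any member after adjustment. Both slopes of a member come from separate females. In both contexts 5 members were called, and the matching count over all transcripts was not made.

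**Figure D3:**
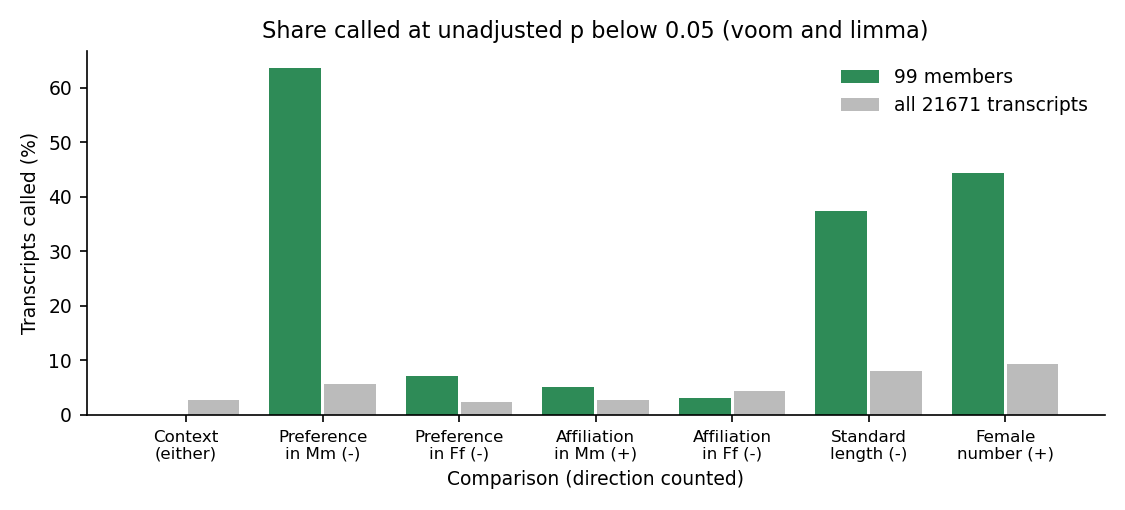
Share of transcripts called at an unadjusted p below 0.05 in voom and limma (y axis, percent) for 7 comparisons (x axis), with the 99 members in green at left and all 21671 transcripts in grey at right; the sign in brackets is the direction counted. The green and grey bars stand at 63.6% and 5.68% for preference in Mm, 37.4% and 8.08% for standard length, 44.4% and 9.25% for female number and 0 and 2.69% for context. Members follow the same eigengene, so that their calls are not independent of each other.

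Social affiliation is the time a female spent near either stimulus, with slopes given per 100 s. In Mm, 93 of the 99 slopes were positive, with a median of 0.25 and a range from -0.05 to 2.57, and without female 3 there were 61 positive slopes and a median of 0.06. The level of 5 members (5.05%) rose with affiliation at an unadjusted p below 0.05, against 2.72% of all transcripts, and none passed the limma adjustment (lowest adjusted p 0.935). edgeR and DESeq2 called 0 members unadjusted, against 1.4% and 2.35% of all transcripts, as did limma without female 3 or without female 12, whereas 10.1% were called without female 5, 11 or 17, 8.08% without female 10 and 3.03% without female 13. In Ff, 62 slopes were negative, with a median of -0.07, but the median turned to 0.10 without female 17, to 0.04 without female 7 and to 0.01 with standard length as a term. At an unadjusted p below 0.05, 3 members (3.03%) fell, against 4.31% of all transcripts, with 1.01% called without female 1, 7, 9 or 19 and 0 without female 17. The difference of the slopes was positive for 93 members and passed in that direction at an unadjusted p below 0.05 for 6 (6.06%), against 3.55% of all transcripts, with no adjusted p below 0.796 in limma. That count was 0 without female 12, 1 without female 17, 2 without female 3 and 3 without female 19, with 67 positive differences without female 17 and 66 without female 3. It was also 1 with standard length as a term, 2 with edgeR and 1 with DESeq2, against 2.87% and 3.97% of all transcripts in those tools. For affiliation the shares of members called were thus near the background.

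Standard length, from the tip of the snout to the base of the tail fin, measures body size, and coefficients are per 10 mm in a model with context. Of the coefficients, 98 of 99 were negative, from -3.50 to 0.04 with a median of -0.38, and the median of all transcripts was 0.02. The level of 37 members (37.4%) fell with length at an unadjusted p below 0.05, against 8.08% of all transcripts. None passed the adjustment in limma (lowest adjusted p 0.126). edgeR called 16 members unadjusted, against 6.79% of all transcripts, and DESeq2 called 20, against 7.48%. The share was 18.2% without female 3 and 76.8% without female 8, a large Ff female with high members. Over all transcripts, 1752 fell with length with all females, 1303 without female 3 and 1697 without female 8.

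Female number gave members their lowest adjusted p values. With context in the model, 96 of 99 coefficients were positive, from -0.995 to 2.88 per 10 numbers with a median of 0.58, and the median of all transcripts was -0.02. The level of 44 members (44.4%) rose with female number at an unadjusted p below 0.05, against 9.25% of all transcripts. After Benjamini-Hochberg adjustment in limma 3 members rose (3.03%), against 1.44% of all transcripts. This count depends on single females. It was 0 without female 1, 2, 3, 4, 5, 11, 12 or 13, or with standard length as a term, and it was 1 without female 6, 2 without female 10, 5 without female 7 or 9, and 18 without female 19. Over all transcripts the same count fell as well. It was 312 with all females, from 71 (without female 3) to 229 (without female 11) where the members had 0, and 0 with standard length as a term. edgeR called 52 members unadjusted, against 9.19% of all transcripts, and 4 adjusted, against 1.19%. DESeq2 called 74 unadjusted, against 10.3%, and 35 adjusted, against 3.79%. Without female 1 the share was 29.3% and without female 3 it was 28.3%, whereas without female 19, the female with the highest number and a mean member level of -0.12 SD, it was 73.7%. Over all transcripts, 2005 rose with number with all females, 1768 without female 1 and 1630 without female 3.

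The traits were not independent of each other. Over the 15 females the r was -0.71 between preference and female number, -0.77 between standard length and female number, and 0.44 between preference and standard length. Of the members, 30 were called both for preference in Mm and for female number, 33 only for preference in Mm and 14 only for female number, and 24 were called for both length and number. The matching counts over all transcripts were not made, so that these describe the members only. With female number added to the model, 24 of 99 members (24.2%) fell with preference in Mm, against 2.39% of all transcripts, and all 99 slopes remained negative, with a median of -0.22. With the number group, females 1 to 8 against 9 to 19, in its place the count was also 24, against 2.64% of all transcripts, and the median -0.25. The mean member level stepped from -0.69 SD in female 5 to 0.39 SD in female 6. Neither a linear number term nor this grouping follows that step, since females 6 to 8 share a group with females 1 to 5. Whether the remaining slopes are separate from this step was not tested. For standard length the share called in either direction was 3.03% with number in the model, against 6.43% of all transcripts, and 2.02% with the number group, against 4.11%. The median coefficients were -0.02 and -0.08, and 47 of 99 were positive with number in the model. For female number, 16.2% were called in either direction with standard length in the model, against 8.79% of all transcripts. The members called for none of the 7 comparisons, which leave out the slope differences, numbered 18, again without a matching count over all transcripts.

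The eigengene chose the members, so that its relations with the traits are not separate evidence from the fits of the members. Preference had an r of -0.58 with the eigengene over all 15 females (permutation test, p = 0.0258) and a rho of -0.43 (p = 0.114). With the 2 most extreme scores left out r was -0.34 (permutation test, p = 0.25), so that the relation rested in part on those females. Within Mm r was -0.81 (exact permutation test, p = 0.0198; rho = -0.67, p = 0.0831; r = -0.74 without 2 females, p = 0.0944). Within Ff it was -0.31 (exact permutation test, p = 0.518; rho = -0.21, p = 0.661). Within females 1 to 8 r was -0.55 (exact permutation test, p = 0.151; rho = -0.65, p = 0.0918), and within females 9 to 19 it was 0.30 (exact permutation test, p = 0.450; rho = 0.43, p = 0.354). With the 2 most extreme scores left out, r was -0.60 in Ff, -0.80 within females 1 to 8 and 0.33 within females 9 to 19. The negative relation with preference did not hold within females 9 to 19. In all, 51 p-values of this family were computed, and none was below 0.05 after Benjamini-Hochberg adjustment (lowest 0.329). The p-values with 2 females left out were not part of this family and were not adjusted. In the study's own tests, only the black, blue and green-yellow modules were associated with preference, and lightgreen was not among them. The blue eigengene, which ran opposite to lightgreen, rose with preference there. No module of the study differed between contexts.

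Female number had an r of 0.53 with the eigengene over all 15 females (permutation test, p = 0.0409) and a rho of 0.53 (p = 0.0464). With the 2 most extreme numbers left out r was 0.77 (permutation test, p = 0.00303, not adjusted). With no female left out, r was 0.81 within Mm (exact permutation test, p = 0.0214; rho = 0.67, p = 0.0831) and 0.38 within Ff (exact permutation test, p = 0.385; rho = 0.29, p = 0.556). Within females 1 to 8 r was 0.85 (exact permutation test, p = 0.0109; rho = 0.74, p = 0.0458), whereas within females 9 to 19 it was -0.48 (exact permutation test, p = 0.280; rho = -0.39, p = 0.396). With the 2 most extreme numbers left out, r was 0.82 in Ff, 0.87 within females 1 to 8 and 0.14 within females 9 to 19, where 5 females remained. The positive relation with number passed the unadjusted test within the first 8 females and not within the later ones, where its sign changed with those 2 females. The adjusted p of the r values with no female left out was 0.329 or more.

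**Figure D4:**
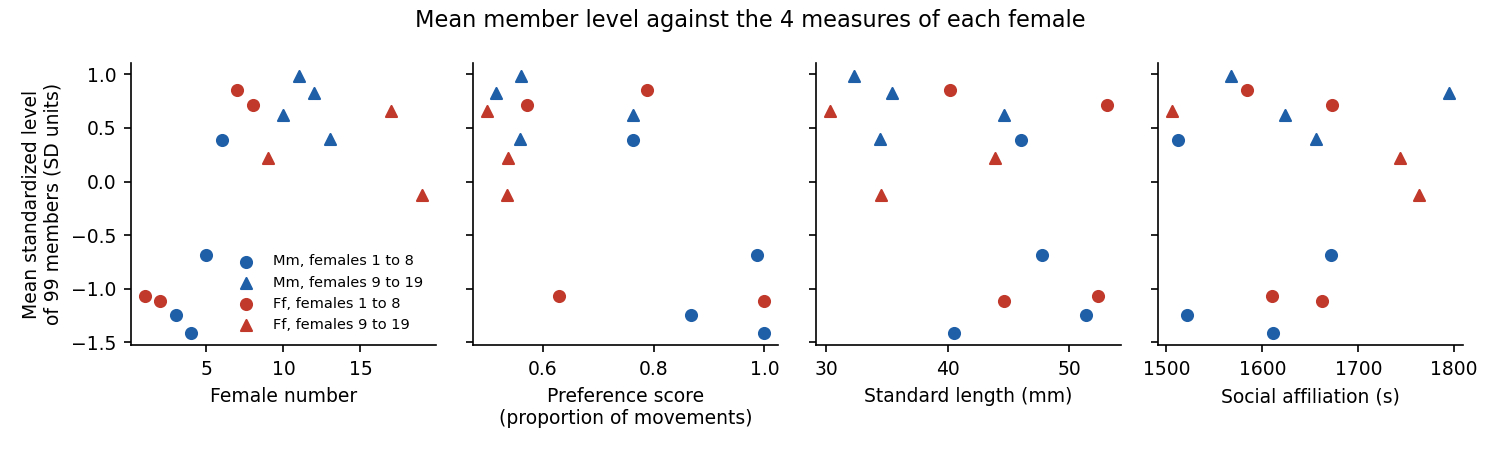
Mean standardized level of the 99 members (y axis, SD units) against female number, preference score, standard length and social affiliation (x axes), each point a female, blue for Mm and red for Ff, circles for females 1 to 8 and triangles for females 9 to 19. The 5 females below -0.6 SD are all circles with numbers 1 to 5, and all triangles lie above -0.2 SD.

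Standard length had an r of -0.40 with the eigengene over all females (permutation test, p = 0.139; rho = -0.29, p = 0.289) and -0.26 with the 2 most extreme lengths left out. It was -0.57 in Mm (exact permutation test, p = 0.140) and -0.21 in Ff (exact permutation test, p = 0.623), and -0.07 within females 1 to 8 and -0.15 within females 9 to 19. Affiliation had an r of 0.0015 over all females (permutation test, p = 0.996; rho = -0.05, p = 0.854), 0.17 in Mm (exact permutation test, p = 0.702) and -0.22 in Ff (exact permutation test, p = 0.618). Within females 1 to 8 the r with affiliation was -0.05, and within females 9 to 19 it was -0.48 (exact permutation test, p = 0.281). With the 2 most extreme times left out, r within females 9 to 19 was -0.97 over the 5 that remained (exact permutation test, p = 0.00833, not adjusted), so that this value depends on those 2 females. The mean standardized level of the members, used in place of the eigengene and without a test, had an r of -0.67 with preference, 0.63 with number, -0.47 with length and 0.07 with affiliation over all 15 females.

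Of the members, 4 are named, the pair with the smallest p for a rise with female number and the pair with the smallest p for a fall with preference in Mm. Their selection on these contrasts makes the fits a description. ENSPLAT00000004221.1, of 4689 bases and 70th in r, had 12.5 to 86.3 CPM in Mm (median 64.0; 52.9 ± 29.0, SD, n = 8) and 16.7 to 109 CPM in Ff (median 64.2; 59.9 ± 29.8, SD, n = 7). Its lowest values were 12.5, 15.3 and 31.0 CPM in females 3, 4 and 5 of Mm and 16.7 and 32.2 CPM in females 2 and 1 of Ff, all below the 58.0 CPM of the next female, and the highest lay in female 17. Its log2 coefficient on number was 1.30 per 10 numbers (SE 0.30, limma adjusted p = 0.036), and its slopes on preference were -0.45 (SE 0.13) in Mm and -0.42 (SE 0.16) in Ff.

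ENSPLAT00000015425.1, of 1632 bases and 64th in r, had 18.1 to 51.3 CPM in Mm (median 33.9; 33.5 ± 12.3, SD, n = 8) and 21.0 to 52.5 CPM in Ff (median 36.1; 34.5 ± 10.7, SD, n = 7). Females 1 to 5 were again the lowest, at 18.1 to 24.3 CPM, with 30.0 CPM in female 6 next, and female 17 was the highest. The coefficient on number was 0.70 (SE 0.17, limma adjusted p = 0.0386), and the slopes on preference were -0.28 (SE 0.06) in Mm and -0.19 (SE 0.07) in Ff. The third member past the adjustment for number, of 1563 bases and 24th in r, had 27.8 to 72.6 CPM in Mm (median 44.3) and 30.8 to 58.5 CPM in Ff (median 44.3), with a coefficient of 0.63 (SE 0.16, limma adjusted p = 0.0427).

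ENSPLAT00000029527.1, of 4732 bases and 73rd in r, had the smallest p among members for preference in Mm. Its levels were 76.2 to 139 CPM in Mm (median 109; 109 ± 24.6, SD, n = 8) and 99.0 to 120 CPM in Ff (median 111; 110 ± 8.53, SD, n = 7). Females 3, 4 and 5 of Mm were lowest, at 80.3, 76.2 and 91.3 CPM, and females 11 and 12 of Mm were highest, at 137 and 139 CPM, so that the Ff females all lay inside the range of Mm. The slope was -0.17 in Mm (SE 0.03, limma adjusted p = 0.180) and -0.05 in Ff (SE 0.03, limma adjusted p = 0.858). Its coefficient on number, 0.37 (SE 0.10), had a limma adjusted p of 0.0552.

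ENSPLAT00000001676.1, of 1629 bases and 25th in r, had 12.6 to 38.7 CPM in Mm (median 25.4; 23.9 ± 9.94, SD, n = 8) and 15.2 to 26.0 CPM in Ff (median 23.4; 22.6 ± 3.98, SD, n = 7). Its values were 14.1, 12.6 and 13.4 CPM in females 3, 4 and 5 of Mm and 38.7 and 35.0 CPM in females 11 and 12, and in Ff only female 1, at 15.2 CPM, came near the low Mm females. The slope on preference was -0.32 in Mm (SE 0.06, limma adjusted p = 0.280) and -0.06 in Ff (SE 0.07, limma adjusted p = 0.955). Both transcripts named for preference had a larger SD in Mm than in Ff. This follows in part from choosing them by their slope in Mm, and the difference was not tested.

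**Figure D5:**
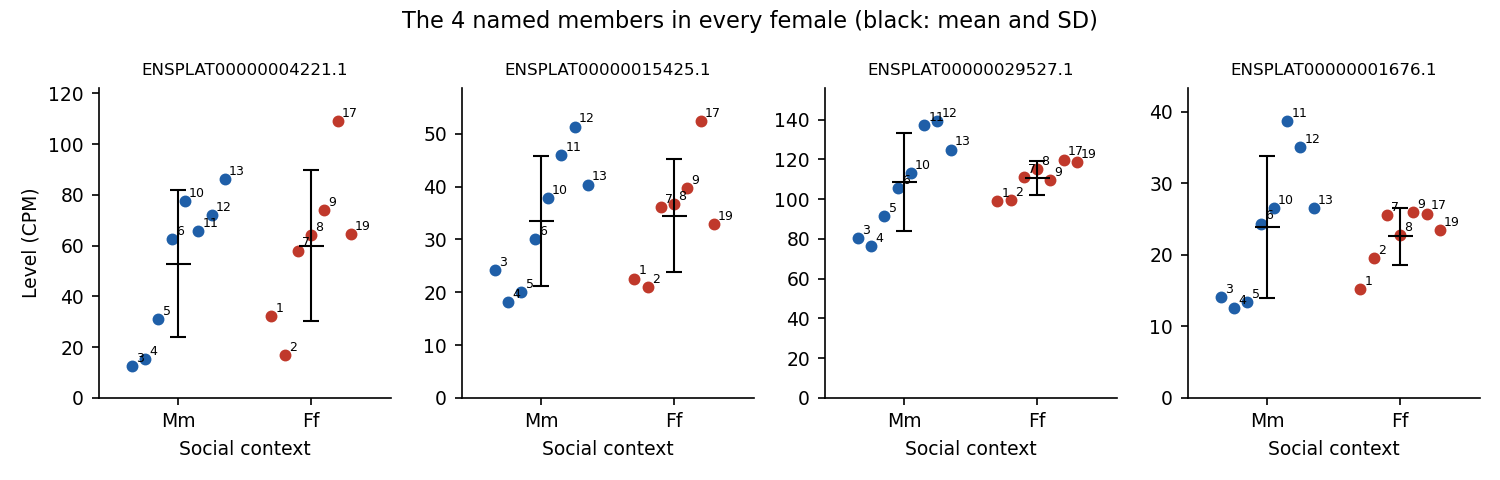
Level in CPM (y axis) of the 4 named members in every female, with Mm at left in blue and Ff at right in red; small digits are female numbers, and black bars give the mean and SD. Females 1 to 5 lie at the lower end of their context in all 4 panels. The SD of ENSPLAT00000029527.1, which was chosen by its slope in Mm, is 24.6 CPM in Mm and 8.53 CPM in Ff.

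Choosing members by a near absence of reads in some female also chooses them by the size of their change, so that larger coefficients among them are given as a description. The 29 members that went below 0.1 CPM in a female and above 5 CPM in another had slopes on preference in Mm from -1.75 to -0.39 (median -1.22), and the other 70 had slopes from -0.67 to -0.08 (median -0.21). For female number, the medians were 1.24 and 0.49 per 10 numbers, and the 3 negative coefficients were all in the first set, with p of 0.442, 0.837 and 0.842 in the fit over all transcripts with limma. Larger coefficients did not go with more calls throughout. At an unadjusted p below 0.05, 17.2% of the 29 and 55.7% of the other 70 rose with number. The shares that fell were 55.2% and 67.1% for preference in Mm, 13.8% and 4.29% for preference in Ff, and 62.1% and 27.1% for length. Over all transcripts 9.25% rose with number. Those that fell made up 5.68% for preference in Mm, 2.35% for preference in Ff and 8.08% for length. Shares over the 2779 kept transcripts with the same bounds were not counted, so that the contrast describes the members only. Coefficients of transcripts with counts at or near 0 depend on the offset that voom adds to each count, and are no bound on a change.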

How the data were processed

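Whole-brain libraries of 15 female sailfin mollies, 8 in Mm and 7 in Ff, were used. The authors trimmed single-end reads with cutadapt, checked them with FastQC and pseudoaligned them with kallisto 0.43.0 to Ensembl transcripts of the species. The estimated counts, which need not be whole, were deposited by the authors for each transcript without scaling between libraries. The TPM values in the same deposited files are kallisto's, computed from the estimated counts and effective lengths. Estimated counts were rounded for tests. Social context, preference, affiliation, standard length, female number and the eigengenes come from the supplement of the study, and WGCNA was not rerun.

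Members and lists were chosen with earlier results of these data known. Transcripts with TPM above 2 in 3 or more females were fitted with voom, TMM factors and limma 3.58.1 in R 4.3.3, over all 15 females, with the study's models (context, and context with slopes of preference or affiliation within context) and with models of context and length or context and number. Calls were made at an unadjusted p below 0.05, with Benjamini-Hochberg counts over all 21671 transcripts beside them. The study paired its p with a shuffled false discovery rate, which was not computed here. edgeR 4.0.16, DESeq2 1.42.0, total-count scaling, no filter, log2(TPM + 1) and log2(TPM + 0.1), added terms, other r thresholds and each female left out were the alternatives. The fit was tested on simulated counts. Eigengene relations used permutation tests, 2-sided, with exact enumeration within groups (Python 3.11.15, SciPy 1.17.1).

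Named transcripts were, of the called members, the 2 with the smallest p for a rise with number and the 2 for a fall with preference in Mm. Permutation tests planned for single transcripts were not run, since these transcripts were chosen on the contrasts. Depth limits low members: counting error is larger at a total of 3424641 than at 10555933 estimated counts.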

Additional observations from a re-analysis of the deposited data

Results flagged for a closer look

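ENSPLAT00000029527.1 and ENSPLAT00000001676.1 had a steeper fall with preference in Mm than in Ff in the test of the difference of slopes. The difference, Mm minus Ff, was -0.12 log2 units per 0.1 of preference score for ENSPLAT00000029527.1 (SE 0.05, limma adjusted p = 0.999). It was -0.258 for ENSPLAT00000001676.1 (SE 0.09, limma adjusted p = 0.999). Both were below an unadjusted p of 0.05 in the fit over all transcripts. Both transcripts had been selected for their slope in Mm, and neither difference passed the adjustment over all transcripts. No female stood alone beyond Dixon's limit in 12 groups of values looked at.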

How the results depend on the processing

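No paired analysis was possible because each female's number occurs in one context only. The number of members was 387 at an r above 0.7 and 9 at an r above 0.9. It was 72 with TPM, 97 to 110 with a pseudocount of 0.1, with TMM-scaled CPM or with no filter, and 86 to 138 with a female left out. The shares of members called that follow count both directions. For context, 0.258% of members were called at an r above 0.7, and 0 to 1.01% with a female left out. For preference in Mm the share was 24.2% with female number and 24.2% with the number group as a term, 32.3% with standard length as a term, and 33.3% to 74.7% with a female left out. Its median slope was negative under every alternative, from -0.362 to -0.221. For preference in Ff the share was 12.1% at an r above 0.7, 0 at an r above 0.9, 14.1% on log2(TPM + 1), 16.2% on log2(TPM + 0.1), 0 with number and 0 with the number group, 3.03% with length, and 3.03% to 21.2% with a female left out, and the median slope with a female left out was -0.255 to 0.0144, the last without female 2. For affiliation in Mm it was 0 at an r above 0.9, with edgeR, with DESeq2 and on both TPM scales, 8.08% with library size as a term, 1.01% with number, number group or length, and 0 to 10.1% with a female left out. For affiliation in Ff it was 0 at an r above 0.9, with edgeR and with length, 1.01% on log2(TPM + 0.1) and with library size, and 0 to 3.03% with a female left out. For standard length it was 11.1% at an r above 0.9, 16.2% with edgeR, 20.2% with DESeq2, 3.03% with number, 2.02% with the number group, and 18.2% to 76.8% with a female left out. For female number it was 74.7% with DESeq2, 16.2% with length, and 28.3% to 73.7% with a female left out. Shares over all transcripts moved too. In the main fit 5.68% fell with preference in Mm, 2.35% with preference in Ff, 4.31% with affiliation in Ff and 8.08% with length. In the same order these were 2.64%, 0.937%, 4.85% and 2.06% with the number group, and 4.11%, 3.36%, 8.13% and 5.42% on log2(TPM + 0.1). With length as a term 4.42% rose with number, against 9.25%. The eigengene's r with preference was -0.343 with the 2 most extreme scores left out. On log2(TPM + 0.1) the median of all transcripts on number moved to -0.11, and the members' median was 0.63. The causes of these changes were not tested beyond the terms named.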
